A study of Mus musculus with 4 samples.

Results

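The contactins and the contactin-associated proteins are 10 genes here, of the 32285 genes in the deposited matrices. They were taken by symbol: Cntn1, Cntn2, Cntn3, Cntn4, Cntn5, Cntn6, Cntnap1, Cntnap2, Cntnap4 and Cntnap5a. All 10 were found by exact match, and each was described by its level in cell classes and in groups of neurons. The tissue was frozen whole hypothalamus of mice about 18 months old, profiled as single nuclei with the Chromium 3' chemistry. The study compared 2 samples labelled Transplanted, from mice given hypothalamic stem cells derived from human pluripotent cells, with 2 samples labelled Control. The files list mouse genes, and the grafted human cells were not analysed here. Strain and sex are not given in the sources used here, and some titles join 2 animal codes without saying whether animals were pooled.

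Contactins are immunoglobulin-fold proteins held on the outside of the plasma membrane by a lipid anchor, and contactin-associated proteins are membrane-spanning relatives of the neurexins. Cntn1 pairs with Cntnap1 where myelin is sealed to the axon beside the node of Ranvier, and Cntn2 pairs with Cntnap2 in the neighbouring stretch of axon where potassium channels gather. The others are best known from neurite growth, cell adhesion and the forming of synapses in brain. Variants in several human relatives, CNTNAP2 among them, have been studied in neurodevelopmental disorders.

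The matrices labelled Transplanted and Control held the same nuclei, and nothing about transplantation can be estimated here. Of the barcodes of the smaller matrix, 99.7% were common to both labels within each replicate number, against 4 barcodes in common between the 2 distinct sets. The transplanted-labelled total of a member differed from the control-labelled total by -5.42% (Cntnap1 in replicate 2) to 8.20% (Cntn2 in replicate 2). Cntnap2 had 43490 UMIs (unique molecular identifiers, counted transcripts) under the label Transplanted and 42856 under the label Control in replicate 1, and 20269 and 20313 in the same order in replicate 2. The counts were not identical nucleus by nucleus. In nuclei with a common barcode, the Cntnap2 count was equal under both labels in 42.2% (replicate 1) and 46.2% (replicate 2). That was the lowest share of the members, and Cntn2 had the highest, 98.3% and 97.4%. The results below use the control-labelled matrices as 2 libraries. Library A (replicate 1) held 4008 nuclei and 8779880 UMIs, with a median of 1813 UMIs a nucleus, and library B (replicate 2) held 2150 nuclei and 4924563 UMIs, with a median of 2049.

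Clustering without the family genes placed 6128 nuclei in 15 clusters, of which 10 were neuron-like. The 2 libraries, A first, had 3000 and 1477 neurons, 321 and 200 astrocytes, 367 and 285 oligodendrocytes, 135 and 72 oligodendrocyte precursors, 114 and 44 tanycytes, and 66 and 47 microglia. The names mean neuron-like and so on. Tanycytes are glia that line the floor of the third ventricle. Levels are given as CPM, the UMIs of a gene as counts per 1e6 UMIs of that class in that library, and the levels of different genes are not set against each other, since no value was scaled by gene length. Tests took each class against the average of the other 5 on the log2 scale, with library as a block, in edgeR's quasi-likelihood test with Benjamini-Hochberg adjustment at 0.05. The block removes the overall difference between the libraries. P-values measure only how evenly the 2 libraries repeat a difference, with an estimate of spread shared over genes. That spread may be technical.

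Neurons carried most of the family. Of the 9 members that passed the filter on low counts, 9 were higher in neurons and 0 were lower, where 28.5% of all 6063 tested genes were higher and 14.1% lower. Cntnap1 did not pass that filter and has no test between classes. Cntnap4 passed it only through its neuron levels, so its call in neurons is not independent of the filter. Cntn2 passed it only through its oligodendrocyte levels, and the same limit holds for its call in oligodendrocytes. The median difference in neurons was 2.97 over the members and 0.16 over all tested genes. Among the 45 pairs of a member and a glial class, 6 were higher and 11 lower, where 15.3% and 7.07% of all pairs were. The 11 became 7 in DESeq2 and in nuclei with at least 1000 UMIs, and 6 without the library block. The 6 were Cntn1 in astrocytes (where 18.0% of genes were higher), Cntn2 and Cntn3 in oligodendrocytes (18.9%), and Cntn1, Cntn4 and Cntn6 in precursors (15.6%), with 0 in microglia (12.2%) and tanycytes (11.9%).

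**Figure D1:**
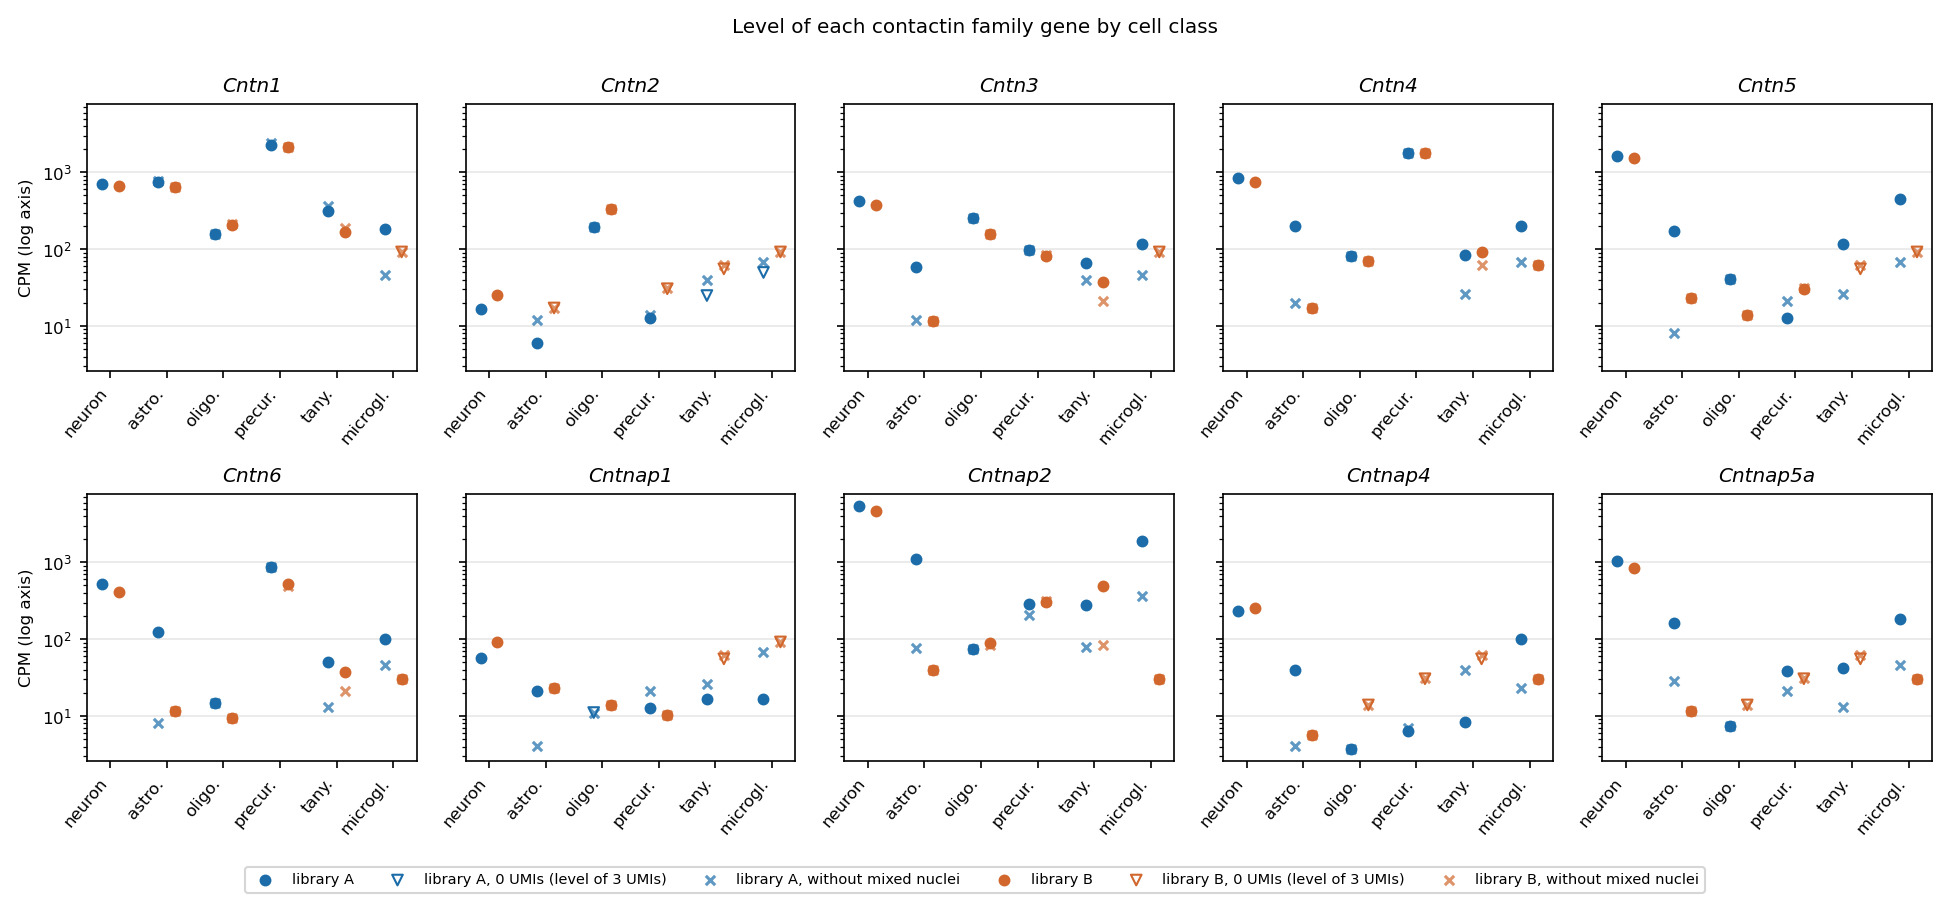
Level of each of the 10 genes in 6 cell classes, in CPM on a log axis, with a filled point for each of the 2 libraries. Open triangles mark a class with 0 UMIs, drawn at the level 3 UMIs would have, and crosses give the glial classes without nuclei that also held neuronal transcripts (also at the level of 3 UMIs where none was counted). Cntn1, Cntn4 and Cntn6 were highest in precursors, Cntn2 in oligodendrocytes, and the other 6 in neurons.

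Cntn1, the contactin found at the paranode on the axon and also made by glia, had its highest level in precursors. It stood at 2297 CPM in library A and 2118 in library B in precursors, 760 and 652 in astrocytes, 706 and 660 in neurons, 316 and 166 in tanycytes, 159 and 209 in oligodendrocytes, and 182 and 0 in microglia. Precursors lay apart from every other class, while astrocytes and neurons overlapped, as did the classes below tanycytes with their neighbours. The difference from the average of the other classes was 3.01 ± 0.29 in precursors (SE, adjusted p = 8.88e-09), 1.06 ± 0.32 in astrocytes (adjusted p = 0.0155) and 0.95 ± 0.31 in neurons (adjusted p = 0.0142). The call in neurons was lost in the transplanted-labelled matrices (0.73, adjusted p = 0.053), without the library block (0.94, adjusted p = 0.0856) and in nuclei with at least 1000 UMIs (0.57, adjusted p = 0.46). After each nucleus was thinned to 500 UMIs, a Cntn1 UMI was found in 68.1% (exact 95% interval 59.6 to 75.9) and 61.1% (48.9 to 72.4) of precursors in libraries A and B, against 29.8% and 26.3% of neurons. Before thinning these shares were 89.6% and 86.1% of precursors and 72.9% and 73.7% of neurons, which had more UMIs each.

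Cntnap1, its partner on the axon, was sparse. Its level in neurons was 56.6 CPM (library A) and 92.7 (library B), from 443 and 397 UMIs. Astrocytes had 21.3 and 22.9 CPM from 7 and 4 UMIs, precursors 2 and 1 UMIs, oligodendrocytes 0 and 3, tanycytes 2 and 0, and microglia 1 and 0. Neurons lay apart from astrocytes, oligodendrocytes and precursors. In library B, 3 UMIs would be 55.5 CPM in tanycytes and 92.1 CPM in microglia, close to the neuron levels, and the separation of neurons from these classes was not resolved at this depth. The glial classes below astrocytes could not be ordered.

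Cntn2, the contactin of the juxtaparanode, which is made by the axon and by the myelinating cell, was the member highest in oligodendrocytes. It had 192 CPM in library A and 334 in library B in oligodendrocytes, and 16.9 and 24.99 in neurons. Astrocytes and precursors had 2 UMIs each in library A and 0 in library B. Tanycytes and microglia had 0 UMIs in both libraries, where 3 UMIs would be 24.9 and 55.5 CPM in tanycytes and 49.7 and 92.1 in microglia. The test placed Cntn2 higher in oligodendrocytes (adjusted p = 2.27e-11) and in neurons (adjusted p = 0.0473). Cntn2 passed the low-count filter only through its oligodendrocyte levels, so its call in oligodendrocytes is not independent of the filter. The fitted size is not given, because it depends on the classes with no UMI, and the call in neurons was lost in DESeq2 (adjusted p = 0.193), with RLE size factors (0.0518), without the library block (0.0821) and in nuclei with at least 1000 UMIs (0.248). After thinning to 500 UMIs, 9.54% of oligodendrocytes in library A (6.73 to 13.01) and 16.5% in library B (12.4 to 21.3) held a Cntn2 UMI, against 0.667% and 0.880% of neurons. Before thinning the shares were 12.5% and 22.5% of oligodendrocytes and 4.07% and 6.91% of neurons.

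Cntnap2, the membrane partner of Cntn2 that holds potassium channels in place, was high in neurons. It had 5392 CPM in library A and 4684 in library B in neurons, 290 and 305 in precursors, 73.9 and 88.2 in oligodendrocytes, 282 and 499 in tanycytes, 1110 and 40.04 in astrocytes, and 1890 and 30.7 in microglia. Neurons lay apart from all 5 glial classes, and astrocytes and microglia differed widely between the libraries. The difference in neurons was 4.12 ± 0.50 (adjusted p = 1.42e-07), and that in oligodendrocytes was -3.01 ± 0.81 (adjusted p = 0.00443). A Cntnap2 UMI was found in 79.1% and 78.5% of neurons after thinning, and in 4.36% and 3.86% of oligodendrocytes. Before thinning the shares were 96.0% and 96.0% of neurons, with medians of 2254 and 2624 UMIs a nucleus, and 5.45% and 5.61% of oligodendrocytes, with medians of 667 and 686.

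**Figure D2:**
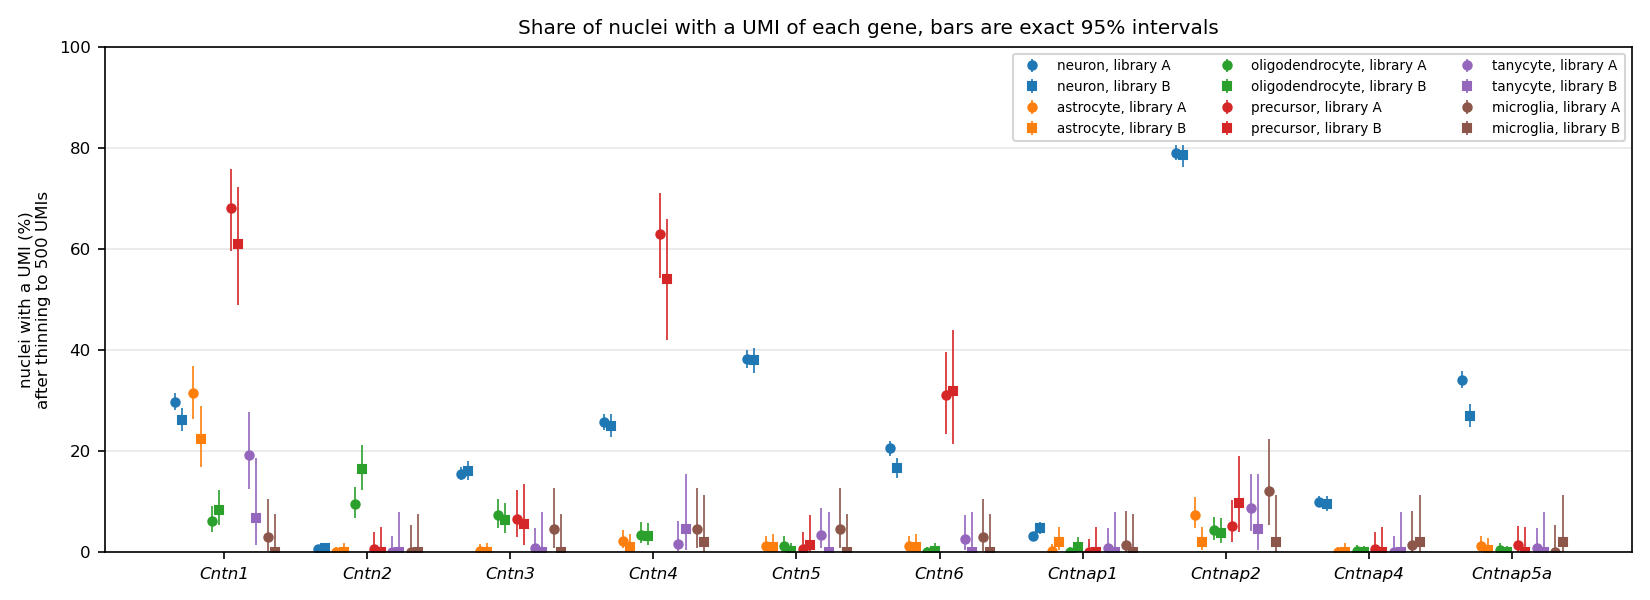
Share of nuclei with at least 1 UMI of each gene after each nucleus was thinned to 500 UMIs, in percent, by cell class (colour) and library (circles A, squares B). Bars are exact 95% intervals and cover counting error only. Cntnap2 was found in 79.1% and 78.5% of neurons, and Cntn1 in 68.1% and 61.1% of precursors.

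The split between the libraries in glia lay in few nuclei. Glial nuclei with at least 5 UMIs of the neuronal transcripts Snhg11, Syt1 and Snap25 together were set apart as mixed, a step chosen after the data were seen. In library A, 20 of 321 astrocytes were mixed and held 346 of the 365 Cntnap2 UMIs of that class (94.8%), and 7 of 66 microglia held 98 of 114 (86.0%). In library B, 0 astrocytes and 0 microglia were mixed. Tanycytes had mixed nuclei in both libraries, 27 of 114 in library A and 3 of 44 in library B. These held 28 of 34 and 23 of 27 Cntnap2 UMIs of the class, and 1 library B nucleus held 21. The doublet caller marked 0.125% and 1.16% of the nuclei of libraries A and B. Over the 13 neuron markers, the median level relative to neurons of the same library was 28.4% (A) and 11.9% (B) in astrocytes, and 28.9% and 4.85% in microglia. The range over markers was 19.2% to 118% in library A astrocytes and 0% to 112% in library B astrocytes, and 0% to 78.5% and 0% to 24.6% in microglia. Without mixed nuclei, Cntnap2 stood at 76.8 and 40.04 CPM in astrocytes, 366 and 30.7 in microglia, 78.2 and 83.7 in tanycytes, and 203 and 313 in precursors. Its difference in neurons was then 5.61 ± 0.13, and it was called lower in astrocytes (-2.02 ± 0.36, adjusted p = 1.88e-07) and in tanycytes (-1.92 ± 0.49, adjusted p = 0.000856). The nuclei were removed for their neuronal transcripts, so the direction of this change was set by the choice. It is no separate evidence of a difference.

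Removing the mixed nuclei left 9 members higher in neurons and 0 lower, where 34.7% and 14.7% of genes were. The same limit holds for these counts, and Cntn5, Cntnap4 and Cntnap5a then passed the low-count filter only through their neuron levels. In precursors 4 members were then higher, with Cntn3 added (1.43 ± 0.53, adjusted p = 0.0331), where 20.5% of genes were. Members called lower numbered 4 in astrocytes (7.29% of genes), against 1 with all nuclei (4.29%), and 3 in tanycytes (4.87%), against 1 (3.36%). They numbered 2 in microglia (16.0% of genes), against 1 with all nuclei (8.40%), 0 in precursors (3.43%), against 1 (2.80%), and 3 in oligodendrocytes (12.2%), against 7 (16.5%). The members no longer called lower in oligodendrocytes were Cntn1 (-0.86, adjusted p = 0.069), Cntn4 (-0.73, adjusted p = 0.129), Cntn5 (-0.41, adjusted p = 0.719) and Cntnap4, which has 1 UMI in that class.

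Cntn4 and Cntn6, contactins of the group known for axon guidance and synapse formation, were shared by neurons and precursors. Cntn4 had 1808 CPM in library A and 1782 in library B in precursors, 856 and 740 in neurons, 199 and 61.4 in microglia, 198 and 17.2 in astrocytes, 83.0 and 92.5 in tanycytes, and 81.3 and 69.6 in oligodendrocytes. Cntn6 had 862 and 519 CPM in precursors, 519 and 406 in neurons, 125 and 11.4 in astrocytes, 99.5 and 30.7 in microglia, 49.8 and 37.0 in tanycytes, and 14.8 and 9.28 in oligodendrocytes. For both genes precursors lay above neurons and neurons above the other 4 classes, although the lower precursor value of Cntn6 (519.3 CPM) could not be told from its higher neuron value (518.5 CPM). In precursors the difference was 3.75 ± 0.30 for Cntn4 (adjusted p = 4.49e-10) and 3.52 ± 0.29 for Cntn6 (adjusted p = 5.71e-10), and in neurons 2.30 ± 0.30 (adjusted p = 5.84e-07) and 2.85 ± 0.25 (adjusted p = 1.11e-09). After thinning to 500 UMIs, Cntn6 was found in 31.1% of precursors in library A (23.4 to 39.6) and 31.9% in library B (21.4 to 44.0), against 20.6% (19.2 to 22.1) and 16.7% (14.8 to 18.7) of neurons. Unthinned, the order did not hold in both libraries: 54.8% and 50% of precursors and 51.8% and 50.8% of neurons. Cntn4 was found after thinning in 63.0% and 54.2% of precursors and 25.8% and 25.1% of neurons, and before it in 86.7% and 80.6% of precursors and 49.3% and 50.2% of neurons. The mixed nuclei held 25 of 281 Cntn4 UMIs and 9 of 134 Cntn6 UMIs of the library A precursors.

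Cntn5, a contactin studied in sensory and auditory circuits, followed neurons without precursors. It had 1656 CPM in library A and 1547 in library B in neurons, 448 and 0 in microglia, 170 and 22.9 in astrocytes, 116 and 0 in tanycytes, 40.6 and 13.9 in oligodendrocytes, and 12.9 and 30.5 in precursors. Neurons lay apart from every glial class, and the glial classes overlapped with their neighbours in the order. The difference in neurons was 5.04 ± 0.35 (adjusted p = 2.74e-11). The call of Cntn5 as lower in precursors (-2.87 ± 0.84, adjusted p = 0.0158) rested on 2 and 3 UMIs, and it was lost in DESeq2 (adjusted p = 0.258), without the library block (0.0872), with called doublets kept (0.394) and without mixed nuclei (0.114).

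Cntn3, an adhesion molecule of the same contactin group as Cntn4 and Cntn6, was found in neurons and in oligodendrocytes. It had 419 CPM in library A and 380 in library B in neurons, 255 and 158 in oligodendrocytes, 96.5 and 81.5 in precursors, 116 and 0 in microglia, 66.4 and 37.0 in tanycytes, and 57.8 and 11.4 in astrocytes. Neurons lay above oligodendrocytes and oligodendrocytes above precursors, and the last 4 classes overlapped. The difference was 2.50 ± 0.22 in neurons (adjusted p = 1.03e-09) and 1.40 ± 0.30 in oligodendrocytes (adjusted p = 0.000413). All 19 astrocyte UMIs of Cntn3 in library A lay in the 20 mixed nuclei.

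Cntnap4, known from the synapses of interneurons, and Cntnap5a, of a rodent subfamily with less known function, had few UMIs in glia. Cntnap4 had 233 CPM in library A and 252 in library B in neurons, from 1829 and 1080 UMIs. In oligodendrocytes, precursors and tanycytes it had 1 UMI each in library A and 0 in library B, in astrocytes 13 and 1 (39.5 and 5.72 CPM), and in microglia 6 and 1 (99.5 and 30.7 CPM). Cntnap5a had 1053 and 850 CPM in neurons, from 8247 and 3640 UMIs, against 53 and 2 UMIs in astrocytes (161 and 11.4 CPM), 11 and 1 in microglia (182 and 30.7 CPM), 6 and 0 in precursors, 5 and 0 in tanycytes, and 2 and 0 in oligodendrocytes. Both were higher in neurons (adjusted p = 1.35e-11 for Cntnap4 and 3.96e-12 for Cntnap5a), but Cntnap4 passed the low-count filter only through its neuron levels. Their fitted sizes are not given, since they depend on classes with 1 to 3 UMIs.

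The family has 3 further genes in the files. Cntnap5b and Cntnap5c passed the filter and were higher in neurons, by 4.10 ± 0.32 (adjusted p = 1.86e-10) and 4.34 ± 0.28 (adjusted p = 1.15e-11), and Cntnap3 was not tested. Cntnap5c passed only through its neuron levels. Of 12 genes of the node of Ranvier and its flanks, 10 were tested, and 9 were higher in neurons with 0 lower, where 28.5% and 14.1% of all genes were. Their median difference was 1.59, beside 0.16 over all genes. Among them were Sptbn4, the spectrin of the node (3.17 ± 0.27), the sodium channels Scn2a (2.68 ± 0.23) and Scn8a (2.37 ± 0.22), and Epb41l3, the protein 4.1B that binds contactin-associated proteins inside the membrane (1.38 ± 0.20). In oligodendrocytes 4 of the 10 were higher and 5 lower, where 18.9% and 16.5% of genes were. In precursors 3 were higher, where 15.6% of genes were, the adhesion protein Nrcam (1.52 ± 0.30), Adam22 (1.17 ± 0.27) and Scn2a (1.45 ± 0.36), and without mixed nuclei 6 were, where 20.5% of genes were.

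Of 13 cell-surface and matrix partners of contactins, 12 were tested. In precursors 8 were higher and 0 lower, where 15.6% of all genes were higher and 2.80% lower, with a median difference of 2.08 beside 0.06 over all genes. The matrix protein tenascin-R, Tnr, differed by 5.50 ± 0.27, brevican, Bcan, by 4.71 ± 0.46, and the receptor phosphatases Ptprz1 and Ptprg, which bind contactins, by 4.02 ± 0.28 and 2.64 ± 0.26. In astrocytes 7 were higher and 2 lower, where 18.0% and 4.29% of genes were, and in oligodendrocytes 3 were higher and 6 lower, where 18.9% and 16.5% were. In neurons 5 were higher and 0 lower, where 28.5% and 14.1% of genes were, among them L1cam (3.20 ± 0.38), its relative Chl1 (1.94 ± 0.22), Tnr (1.62 ± 0.31) and Ptprg (1.54 ± 0.25). Nrcam is in both lists.

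Within neurons, the planned comparison of GABAergic with glutamatergic clusters used 543 and 891 nuclei, since 68.0% of neurons lay in clusters that mixed the transmitters. Of 10 members tested, 1 was higher and 4 lower in GABAergic clusters, where 5.03% and 5.39% of 9455 genes were. When neurons were clustered alone, a step added after the data were seen, 11 groups with 2039 nuclei were GABAergic, 10 groups with 1933 nuclei were glutamatergic, and 4 groups with 505 nuclei (11.3%) were mixed. In these groups 0 members were higher and 5 lower in GABAergic neurons, where 2.29% and 3.67% of 12791 genes were.

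Cntn5 had the largest of these differences. It stood at 1223 CPM in library A and 1098 in library B in GABAergic groups, against 2249 and 2082 in glutamatergic groups. The 2 pooled types did not overlap, and the difference was -0.94 ± 0.08 (adjusted p = 1.88e-08). Single groups interleaved by mean level, with GABAergic groups 9 and 12 above glutamatergic groups 2, 21 and 22. Group 9 was near the 3-fold limit between the types (3.56-fold), and group 12 was further from it (20.1-fold). Glutamatergic group 4 had the highest mean, 5611 CPM. In the planned clusters the difference was -1.64 ± 0.10 (adjusted p = 1.53e-56). That p-value rests largely on the spread shared over genes, with 2 libraries for each type. Those pools held GABAergic cluster 7 (183 and 165 CPM) and glutamatergic cluster 6 (5443 and 5744 CPM). Cntn4 had 669 and 652 CPM in GABAergic groups, against 1040 and 854 in glutamatergic groups (-0.56 ± 0.08, adjusted p = 7.77e-05). Cntnap5a had 915 and 673 CPM in GABAergic groups, against 1186 and 1017 in glutamatergic groups (-0.52 ± 0.08, adjusted p = 0.000112). Cntn6 had 445 and 398 CPM in GABAergic groups, against 623 and 446 in glutamatergic groups (-0.38 ± 0.09, adjusted p = 0.00702), and its higher GABAergic value lay just under its lower glutamatergic value. Cntn3 had 394 and 363 CPM in GABAergic groups, against 464 and 422 in glutamatergic groups (-0.27 ± 0.08, adjusted p = 0.0457), and was not called in the planned clusters (-0.26, adjusted p = 0.152). Without the library block, the planned clusters kept the call of Cntn5 and lost those of Cntn4 (adjusted p = 0.0668), Cntn6 (0.693) and Cntnap5a (0.647).

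The other 5 members were not called in the groups. Cntnap2 had 5553 and 4537 CPM in GABAergic groups, against 5669 and 5111 in glutamatergic groups (-0.14 ± 0.09, adjusted p = 0.516). Cntnap4 had 233 and 282 CPM in GABAergic groups, against 240 and 233 in glutamatergic groups (0.06 ± 0.09, adjusted p = 0.866). It was the member called higher in the planned GABAergic clusters (0.62 ± 0.13, adjusted p = 5.83e-05), a call also lost in DESeq2 (adjusted p = 0.452), without the library block (0.405) and when each nucleus was typed by its own transmitter genes (0.807). Cntn1, Cntn2 and Cntnap1 differed by -0.14, -0.26 and 0.04.

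**Figure D3:**
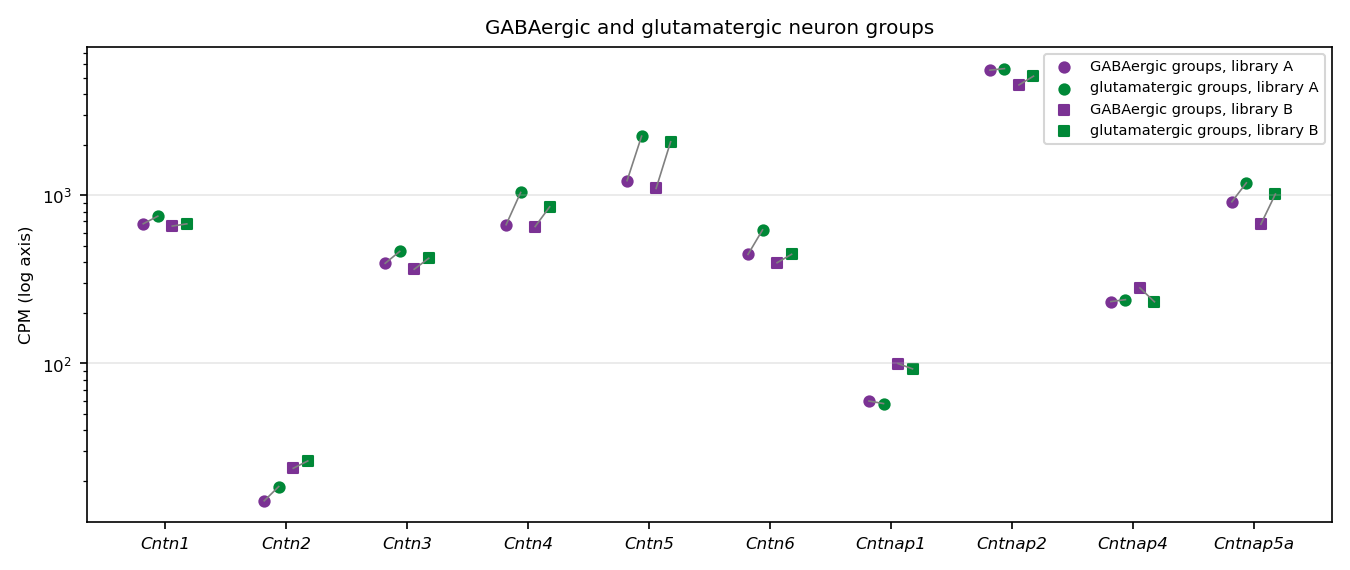
Level of each of the 10 genes in GABAergic (left point of each pair) and glutamatergic (right point) neuron groups, in CPM on a log axis, for library A (circles) and library B (squares). Cntn5 stood at 1223 and 1098 CPM in GABAergic groups, against 2249 and 2082 CPM in glutamatergic groups.

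Levels of the members ranged more widely over single populations of neurons. Among the 8 planned neuron clusters with at least 20 nuclei in each library, 80 pairs of a member and a cluster were tested, and 32 were higher and 16 lower than the average of the other clusters, where 6.95% and 3.14% of all pairs of a gene and a cluster were. Without the library block these counts were 14 and 8. Over the 18 of 25 finer groups with at least 20 nuclei in each library, 46 of 180 pairs were higher and 28 lower, where 4.09% and 1.87% of all pairs were. By gene, Cntn5 was called in 11 groups (7 higher, 4 lower), Cntnap4 in 13 (8 and 5), Cntnap2 in 11 (6 and 5), Cntn6 in 10 (6 and 4), Cntn4 in 8 (5 and 3), Cntn3 and Cntnap5a in 7 each (5 and 2), Cntn1 in 5 (3 and 2), and Cntn2 and Cntnap1 in 1 each. The members hold more UMIs than most genes, and the shares over all genes are not matched for level.

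Among Cntn1, Cntn5, Cntnap2 and Cntnap5a, which had UMIs in both libraries of every group, Cntnap5a and Cntn5 had the widest ranges. For Cntn5 the mean over the 2 libraries was 181 to 5611 CPM over the 25 groups, with a median of 1244, a ratio of 31.0 between the highest and the lowest. Cntnap5a ran over 47.7 to 2585 CPM (ratio 54.2, median 916), Cntnap2 over 1541 to 7487 (ratio 4.86, median 4341) and Cntn1 over 213 to 875 (ratio 4.11, median 655). Most neighbours in these orders could not be told apart: the 2 libraries of adjacent groups overlapped in 22 of 24 steps for Cntn5, 21 for Cntnap5a, 23 for Cntnap2 and 24 for Cntn1.

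**Figure D4:**
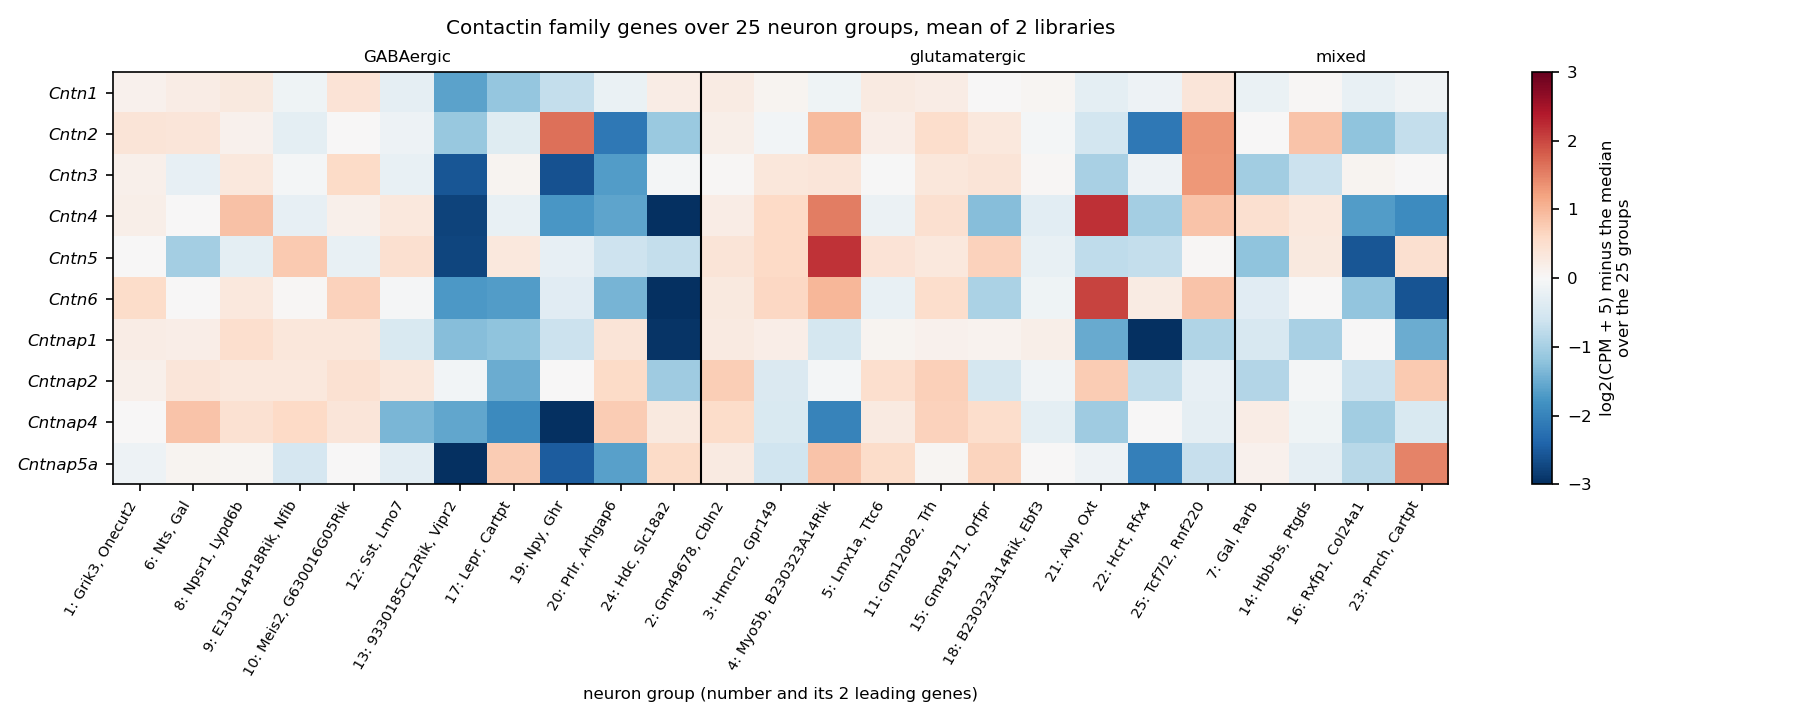
Level of the 10 genes in 25 neuron groups, as log2(CPM + 5) minus the median over groups, mean of 2 libraries, with groups named by number and 2 leading genes. Group 13 is low for most members (Cntn5 at 225 and 137 CPM), and group 4 is high for Cntn5 (5265 and 5957 CPM) and low for Cntnap4 (53.6 and 49.6 CPM).

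Most members were low in group 13, led by 9330185C12Rik, Vipr2, Cdc14a and Prok2. Vipr2 and Prok2 encode a receptor and a secreted peptide known from the suprachiasmatic nucleus, the circadian pacemaker. Of the 10 members, 8 were lower there and 0 higher, where 5.94% of 7832 genes were lower and 7.06% higher. Cntnap5a had 55.0 CPM in library A and 40.3 in library B (-4.28 ± 0.30, adjusted p = 1.33e-19), Cntn4 80.1 and 96.8 (-2.93 ± 0.30, adjusted p = 2.19e-12), and Cntn5 225 and 137 (-2.77 ± 0.26, adjusted p = 1.04e-13). Cntn3 differed by -2.67 ± 0.31, Cntn6 by -1.75 ± 0.25, Cntn1 by -1.55 ± 0.19, Cntnap4 by -1.44 ± 0.30 and Cntnap1 by -1.38 ± 0.45. Cntnap2 was not among them, at 4458 and 3766 CPM (-0.03). Cntn2 had 2 and 0 UMIs there. In the planned clusters, cluster 7 held 143 nuclei, of which 140 were in group 13, and 9 members were called lower, where 5.47% of genes were, with Cntnap2 called too but at a smaller size (-0.50 ± 0.10, adjusted p = 4.91e-05) and without its call where the library block was left out (adjusted p = 0.186). Long genes outside the family, those of at least 300 kb, took 28.6% of UMIs in group 13 and 32.3% in all neurons, and the median nucleus of group 13 had 1682 UMIs. The part of these values in the result was not tested.

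The opposite pattern was in group 4, glutamatergic nuclei led by Myo5b, B230323A14Rik, Tanc1 and Cpne9. There 6 members were higher and 1 lower, where 9.63% and 7.90% of genes were. Cntn5 had 5265 CPM in library A and 5957 in library B, the highest of the 25 groups (2.52 ± 0.13, adjusted p = 4.90e-27), and Cntn4 had 2009 and 1688 (1.86 ± 0.13, adjusted p = 3.41e-19). Cntn6 (1.33 ± 0.13), Cntnap5a (1.24 ± 0.12), Cntn2 (1.10 ± 0.37) and Cntn3 (0.62 ± 0.15) were also higher. Cntnap4 had 53.6 and 49.6 CPM there, against a median of 223 CPM over the groups (-1.85 ± 0.24, adjusted p = 3.16e-09). Cntn5 and Cntnap4 were called in opposite directions in the same nuclei. In the planned clusters, cluster 6 shared 292 of its 303 nuclei with group 4, and Cntn5 (2.78 ± 0.09) and Cntnap4 (-1.74 ± 0.22) were called in the same directions.

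Neurons of the vasopressin and oxytocin genes, Avp and Oxt, had the highest Cntn4 and Cntn6. In group 21, with 29 and 19 nuclei, Cntn4 stood at 3581 and 2293 CPM, and Cntn6 at 1826 and 1310 CPM, in libraries A and B. No other group reached these levels in either library. The group was under 20 nuclei in library B and was not tested, but planned cluster 9, of whose 51 nuclei 46 were in group 21, was. There Cntn4 differed by 2.16 ± 0.12 (adjusted p = 1.13e-28) and Cntn6 by 1.96 ± 0.13 (adjusted p = 3.55e-23), where 3.61% of genes were higher and 3.91% lower. Cntnap2 was higher by 0.60 ± 0.09 (adjusted p = 2.15e-07), a call lost without the library block (adjusted p = 0.0923). Cntn5 was lower by value (-0.62 ± 0.16, adjusted p = 0.00606) but had 1298 CPM in library A and 164 in library B of group 21, and its call was lost in DESeq2 (adjusted p = 0.0786) and without the block (0.285).

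Cntn4 and Cntn6 moved together over the neuron groups. Their levels, as log2(CPM + 5), had a Pearson r of 0.87 over the 25 groups, the highest of all pairs of members, a description without a test over groups that share libraries and depth. Group 24, led by Hdc, the enzyme that makes histamine, was at the other end, with 5 and 0 UMIs of each gene in 19 and 3 nuclei. Group 15, led by Gm49171 and Qrfpr, was called lower for both (Cntn4 by -1.22 ± 0.22, Cntn6 by -0.81 ± 0.20), as was group 16, led by Rxfp1, Col24a1 and Tbx3os1 (-1.72 ± 0.26 and -1.17 ± 0.23). Group 17, led by Lepr and Cartpt, was an exception, with Cntn6 lower (97.96 and 134 CPM, -2.08 ± 0.31, adjusted p = 5.13e-07) and Cntn4 at 331 and 753 CPM, not called.

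Both genes lie on mouse chromosome 6, and in the RefSeq annotation the protein-coding genes Cntn3, Chl1, Cntn6 and Cntn4 follow each other there. The start regions of the pair are shown because the pair moved together. They are the RefSeq windows on GRCm38.p6 from 250 bases before to 50 after a start, with each CG dinucleotide in capitals, for Cntn4 at chr6:106118515-106118814 and for Cntn6 at chr6:104492794-104493093, both on the plus strand.
Cntn4: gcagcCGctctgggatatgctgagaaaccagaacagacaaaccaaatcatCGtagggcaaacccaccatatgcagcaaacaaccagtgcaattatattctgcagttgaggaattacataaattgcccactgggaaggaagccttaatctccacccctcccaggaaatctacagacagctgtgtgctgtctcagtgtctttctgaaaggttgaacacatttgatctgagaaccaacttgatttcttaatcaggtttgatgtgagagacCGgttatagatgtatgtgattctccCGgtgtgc
Cntn6: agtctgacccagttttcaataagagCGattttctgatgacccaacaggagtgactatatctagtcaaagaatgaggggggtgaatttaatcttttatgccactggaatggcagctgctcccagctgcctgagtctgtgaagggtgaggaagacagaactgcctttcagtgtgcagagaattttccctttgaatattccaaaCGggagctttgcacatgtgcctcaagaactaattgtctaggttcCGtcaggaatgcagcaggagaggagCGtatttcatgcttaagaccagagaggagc
Each window held 4 CG, a motif that reads the same on both strands, and 68.6% of the 32851 windows of that table held at least as many, with a median of 7. A later Cntn4 window in the same table, which overlaps the one shown, held 12, and the Cntn5 windows held 26. Of the 10 members, 7 matched the table, and Cntnap1, Cntnap4 and Cntnap5a are named only.

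**Figure D5:**
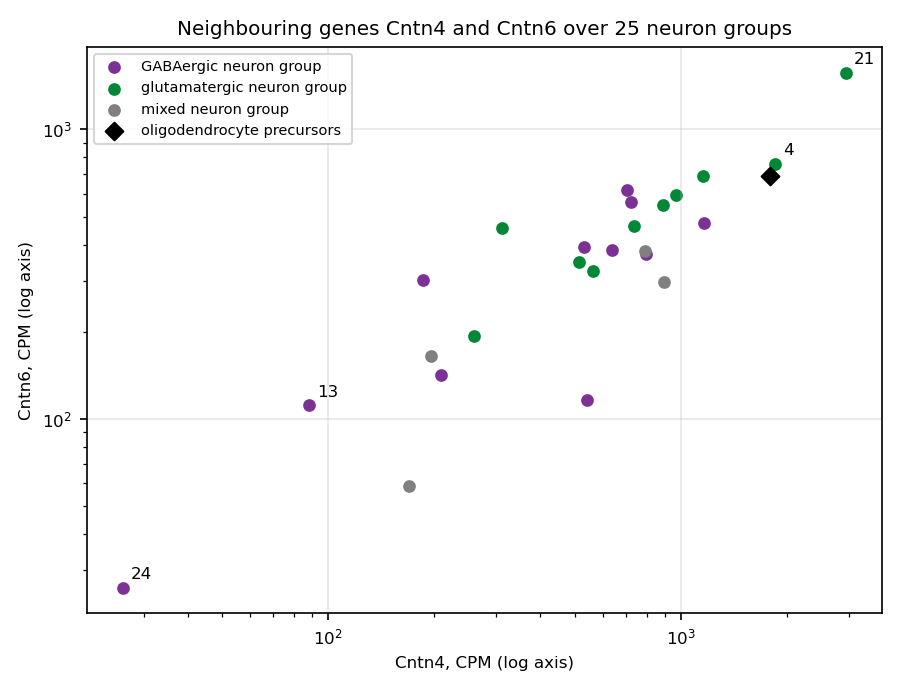
Cntn6 against Cntn4 over 25 neuron groups, in CPM on log axes, mean of 2 libraries, with oligodendrocyte precursors as a diamond and 4 groups numbered. Group 21 (Avp, Oxt) stands highest for both genes and group 24 (Hdc) lowest, and r over the groups was 0.87 on log2(CPM + 5).

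Several single groups had patterns of their own. Group 17 had 4 members lower and 1 higher, where 3.64% and 2.68% of genes were. Cntnap2 was at its lowest there, at 1604 and 1479 CPM (-1.76 ± 0.16, adjusted p = 2.01e-14), and Cntn1 was at 367 and 215 (-1.16 ± 0.20), while Cntnap5a was high at 1616 and 1506 (0.79 ± 0.16, adjusted p = 0.000264). Long genes took 25.5% of UMIs in group 17, the lowest share of the 25 groups, and their part was not tested. Group 16 had 6 members lower and 0 higher, where 2.75% and 3.14% of genes were, with Cntn5 at 359 and 55.1 CPM (-2.39 ± 0.25) and a long-gene share of 28.3%. Over the 25 groups, the summed share of the members and that of long genes had r = 0.61.

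Group 6, GABAergic nuclei led by Nts, Gal and Pappa, had the highest Cntnap4, at 322 and 491 CPM (1.14 ± 0.15, adjusted p = 3.73e-08), with Cntn5 low at 580 and 635 (-1.01 ± 0.19, adjusted p = 8.34e-05). Group 23, led by Pmch, the gene of melanin-concentrating hormone, had the highest Cntnap2, at 9691 and 5283 CPM, and the highest Cntnap5a, at 2301 and 2869. It held 19 and 4 nuclei and was not tested. Group 19, led by Npy, had 1 UMI of Cntnap4 in each library, the lowest mean level (17.0 CPM), and also low Cntn3, with 15 and 0 UMIs, from 41 and 14 nuclei.

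Group 12, led by the somatostatin gene Sst, had Cntnap4 low at 81.9 and 85.1 CPM (-1.28 ± 0.26, adjusted p = 0.000395). Group 9, led by E130114P18Rik, Nfib and Nfia, had Cntn5 high at 2267 and 2016 CPM (0.92 ± 0.15). It was typed as GABAergic, but near the 3-fold limit, with transmitter genes 3.56-fold apart and 78.6 CPM of the glutamatergic gene Slc17a6.

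Genes whose level followed a member were found by the Pearson correlation of log2(CPM + 5) over the 15 clusters, among 10086 genes outside the family, as a description without a test over points that share the libraries. Cntnap2 was followed by the noncoding RNAs Snhg14 (r = 0.98) and Miat (0.96) and by Ankrd55 (0.97). Cntn5 was followed by Slc12a5, the neuronal chloride exporter (0.95), Gm28905 (0.94) and Ube3a (0.94), and Cntnap5a by Gm28905 (0.97), Ube3a (0.95) and Nmt2 (0.94). Cntnap4 was followed by Ube3a (0.94), Nfkb2 (0.94) and Glra3 (0.93), and Cntnap1 by AI854703 (0.96), Tmem25 (0.95) and Tmc4 (0.94). The oligodendrocyte-rich pattern of Cntn2 was nearest to Tmem151a (0.94), Inpp5j (0.93) and Lgi3 (0.93). Cntn6 was followed by Dpp10 (0.94), Zfp57 (0.94) and Rbfox1 (0.91), and Cntn4 by Tmem229b (0.91), Zfp57 (0.91) and Ube2ql1 (0.89). Cntn3 was followed by Mical3 (0.93), Rnf152 (0.91) and Grm7 (0.90), and Cntn1 by Nrxn2 (0.91), Dmd (0.89) and 3830408C21Rik (0.88). The 15 clusters include glia as well as neurons, and the part of that split in these r values was not tested. Over the 25 neuron groups alone, every member had 3 other nearest genes, at lower r. The nearest were Zfp771 for Cntnap2 (0.75), Kcna1 for Cntn5 (0.75), Rbfox3 for Cntnap5a (0.76) and, with the highest r, Cdkl1 for Cntnap1 (0.88).

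The members differ widely in length, which a nuclear library can count along introns. In GENCODE M21 their spans are 2245 kb for Cntnap2, 1244 kb for Cntn5, 1022 kb for Cntn4, 903 kb for Cntnap5a, 410 kb for Cntn3, 371 kb for Cntn6, 313 kb for Cntnap4 and 291 kb for Cntn1, against 34 kb for Cntn2 and 20 kb for Cntnap1. Long genes of at least 300 kb outside the family took 32.3% of UMIs in neurons, 33.8% in precursors, 25.5% in astrocytes, 22.9% in oligodendrocytes, 21.04% in tanycytes and 15.4% in microglia. The part of gene length in the differences between classes was not tested.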

How the data were processed

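Raw UMI counts per gene and barcode are what the authors deposited, per the file headers, and these come from Cell Ranger (5.0.1 in the submitters' processing notes, which name the human build GRCh38). The mouse build, the choice of barcodes and whether introns were counted are not given in the sources used here. Samples were grouped by treatment label, with replicates numbered in accession order. The members and lists were chosen with earlier results of these data known.

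Every nucleus had at least 300 genes. Doublets called by scrublet in scanpy 1.11.5 (30 of 6158) were left out, although the caller did not work in library A, where doublets remain. Clustering (leiden, resolution 1, 40 components, 3000 variable genes, igraph 0.11.9) left out the 13 family genes. A cluster took a class name with at least 3 markers among its 10 leading genes, or as neuron with at least 6 neuron markers over 2-fold above the named clusters. A neuron cluster was GABAergic or glutamatergic where its transmitter genes differed at least 3-fold. Neurons were also clustered alone, again without the family.

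UMI counts were summed per class or cluster and library, since nuclei are not replicates, and tested with edgeR 4.0.16 (quasi-likelihood, TMM, filterByExpr) in R 4.3.3, with library as a block because every class comes from the same 2 libraries. With 1 library left out no residual degrees of freedom remain, so those values carry no test. The test was checked on simulated counts with a set spread. Changes of 1 on the log2 scale were recovered for 21.6% of changed genes in astrocytes among classes. The shares were 17.1% in GABAergic against glutamatergic groups and 50.9% in group 1 among neuron groups. Changes of 2 were recovered for 71.4%, 79.8% and 89.4% in the same order, so a member not called may still differ. Alternatives were DESeq2 1.42.0, RLE factors, no low-count filter, no block, the transplanted-labelled matrices, doublets kept, nuclei with at least 1000 UMIs, family genes kept in the clustering, resolutions 0.5 and 2, neuron clusters led by other markers left out, and transmitter type by nucleus. Leaving out mixed glial nuclei and clustering neurons alone were added after the data were seen. Named genes are the members, the listed genes with the smallest p per direction, and the 3 genes most correlated with each member among genes with at least 50 UMIs in each library. Groups named for their place among the 25 were chosen after their values were seen. All intervals are exact 95% ones, for counting error only. Sequences and neighbours are RefSeq's, and spans are GENCODE M21's. Neither is stated to be the authors' annotation.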

Additional observations from a re-analysis of the deposited data

How the results depend on the processing

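With 2 libraries, precision is limited by the spread between them, and the classes with fewest UMIs (microglia and tanycytes) cannot resolve levels under that of 3 UMIs. Of 88 counts of calls under alternatives, 74 stayed within 1.5 times the reported count and 14 did not. The 9 members higher in neurons became 8 in DESeq2 and with RLE factors, 7 without the replicate block and in nuclei with at least 1000 UMIs, and 10 without the low-count filter. The 11 pairs lower in glia became 7 in DESeq2, 6 without the replicate block and 7 in nuclei with at least 1000 UMIs. The 1 member higher in planned GABAergic clusters became 0 in DESeq2, without the replicate block, by nucleus and with neurons clustered alone, and 2 with RLE factors, without the low-count filter and with family genes in the clustering. The 4 lower became 1 without the replicate block. The 32 pairs higher in planned neuron clusters became 14 without the replicate block, and the 16 lower became 8, and 28 with neurons clustered alone, where more groups were tested. Of 623 values of single members under alternatives, 572 were counted as the same, 45 lost a call, 4 gained one and 2 reversed. A tested value was counted as reversed only if the planned or the alternative setting made a call. Uncalled changes of sign are thus among the 572, as for Cntnap2 in GABAergic neurons (0.25 in planned clusters, -0.14 with neurons clustered alone). Values from 1 library alone have no test and were counted as the same unless their sign changed. The reversed ones were Cntn5 in precursors in library B alone (0.29 on the log2 scale, against -3.72 in library A alone, both without a test) and Cntnap4 between GABAergic and glutamatergic groups in library A alone (-0.038, against 0.27 in library B alone). The cause of these changes was not tested. DESeq2 moved the median difference of all genes in neurons to 0.06, against 0.16 in edgeR with TMM, 0.12 with RLE factors and 1.002 without the low-count filter.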
